A study of Dreissena polymorpha with 12 samples.

Results

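Zebra mussels from the Sitjar dam were compared with zebra mussels from 5 sites on the Ebro River. The 2 arrays labelled Sitjar formed one side, and the 10 arrays labelled with a river site (Mequinenza, Faio, Riba Roja, and the reservoir and factory sites at Flix, called Flix Reservoir and Flix Factory) formed the other, so that all 12 arrays of the series were used. Members were thus chosen by the population label alone. Expression was read for 780 of the 3541 sequences named on the array, namely those for which 2 or more probes stood well above background on every array. They were read by 2360 of the 13654 probes.

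Dreissena polymorpha is an invasive freshwater bivalve that attaches to hard surfaces with byssal threads and filters water through ciliated gills. Its gills exchange gases and ions and catch food particles, so the tissue is in direct contact with the water of the site. Each site was sampled in spring (March) by 2 pools of 5 individuals, and each pool was read on 1 one-colour array. The groups were wild populations and shared species, season, tissue label and protocol. They differed by place alone in the labels, and Sitjar lies 200 km from the Ebro. Neither the age, size or sex of the animals nor the water of a site is given, so the comparison is of 1 reservoir outside the river with 5 sites inside it. Tissue is labelled as gills, while the collection notes speak of part of the body of each animal, and with no annotated sequences the tissue could not be checked against marker genes. In pools of this kind, fewer cells of a type and less RNA per cell cannot be told apart.

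The array names its sequences by GenBank accession, most of them expressed sequence tags, which are single reads of cDNA clones. The files pair these names with no gene apart from RXR, and none of the 3541 names was found in the RefSeq gene table of the species, so sequences are described by accession and without roles. Different tags may come from 1 transcript, so a count of sequences is not a count of genes. All values are log2 intensities, quantile normalised and averaged over the usable probes of a sequence. Differences are Sitjar minus the mean of the 5 Ebro site means, fitted with the slide as a block, and a sequence was called where its adjusted p from limma was under 0.05.

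Replicate 1 of every site was on slide 1 and replicate 2 on slide 2. Each site also kept 1 array position, so a position effect and a site effect cannot be told apart. The share of probes well above background was 34.8% and 33.6% on the Sitjar arrays, against 22.5% to 33.2% on the 10 Ebro arrays (median 31.4%). Both Sitjar arrays were thus above every Ebro array in this share, and Mequinenza replicate 2 stood lowest. Before scaling, the median log2 signal of the 780 sequences was 13.79 at Sitjar and 13.06 on average in the Ebro on slide 1, and 12.40 at Sitjar and 11.72 in the Ebro on slide 2. Spike-in controls, which are added in fixed amounts, did not show that order on both slides. Their mean log2 signal was 9.36 at Sitjar and 9.78 in the Ebro on slide 1, and 9.56 at Sitjar and 9.13 in the Ebro on slide 2. The part of these differences in the results below was not tested.

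In all, 125 of the 780 sequences (16%) differed between Sitjar and the Ebro, 63 higher at Sitjar (8.08%) and 62 lower (7.95%). The higher sequences differed by 1.32 to 2.91-fold, with a median of 1.64-fold. The lower ones differed by 1.34 to 9.83-fold, with a median of 1.96-fold. At least 2-fold differences were reached by 9 of the 63 higher sequences and by 30 of the 62 lower ones. The median absolute log2 difference was 0.72 over the called sequences and 0.25 over all 780. The near equal split depends on the scaling. It was 36 higher and 115 lower with the 75th percentile of the usable probes as the scale, 48 and 119 with their median, and 56 and 88 with the 75th percentile of all probes, while the authors' values gave 64 and 53.

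This count measures Sitjar against the spread between the 2 pools of a site, not against the spread among river sites. With the site as a random block, so that differences among Ebro sites entered the error, 26 sequences were higher and 29 lower. With each site reduced to its mean, 1 Sitjar value against 5 Ebro values, 4 were higher and 7 lower, and 10 of these 11 were among the 125. Without the slide as a block there were 3 calls, namely EY434260, higher at Sitjar, and AM503947 and EY435827, lower (adjusted p = 0.0360 for each). Without Sitjar replicate 1 limma called 0 sequences, with 160 at an unadjusted p under 0.05, and without Sitjar replicate 2 it called 8. Without Flix Factory replicate 1 it called 78, without Mequinenza replicate 2, where fewest probes were detected, 174, and without any one of the other Ebro arrays 87 to 183.

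Of the higher sequences, EY436398 had the largest difference. Its log2 signal was 11.41 and 11.46 on the Sitjar arrays, against 8.39 to 11.14 on the Ebro arrays (median 10.19), so the groups did not overlap. The difference was 1.54 (SE 0.36, adjusted p = 0.0236), or 2.91-fold. EY435226 had 10.60 and 10.49 at Sitjar, against 7.83 to 10.15 in the Ebro (median 9.31), again without overlap. Its difference was 1.46 (SE 0.32, adjusted p = 0.0190). EY435861 had 11.62 and 11.89 at Sitjar, against 9.14 to 11.30 in the Ebro (median 10.86), a difference of 1.28 (SE 0.34, adjusted p = 0.0345). EY436070 had 11.38 and 11.62 at Sitjar, against 8.93 to 11.48 in the Ebro (median 10.49), and here Mequinenza replicate 2 lay above the first Sitjar array. It was 2.40-fold higher at Sitjar (log2 difference 1.26, SE 0.29, adjusted p = 0.0213).

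These 4 sequences followed each other across the river as well. Over the 10 Ebro arrays, with the slide means removed, the correlation between any pair of them was 0.91 to 0.98, against a median of 0.02 over all pairs of the 780 sequences. The quartet was picked out after its values were seen, and the arrays share slides and scaling, so the correlation is a description. All 4 differed more on slide 1 than on slide 2. For EY436398 the difference was 2.28 on slide 1 and 0.80 on slide 2, and for EY435226 it was 2.09 and 0.82. The Sitjar signal of EY436398 was nearly equal on both slides, while its Ebro signal was 8.39 to 10.06 on slide 1 and 10.33 to 11.14 on slide 2. Set against single sites, the 4 sequences were higher at Sitjar by 0.81 to 1.09 than at Mequinenza and by 1.73 to 2.07 than at Riba Roja. The call of EY435861 was lost without Riba Roja replicate 1, either Flix Reservoir array or Flix Factory replicate 1 (adjusted p up to 0.0673).

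Other higher sequences had smaller differences with smaller errors. EY434260 had a log2 signal of 10.52 and 10.13 at Sitjar, against 8.46 to 9.57 in the Ebro (median 9.24). The groups did not overlap, and the difference was 1.15 (SE 0.14, adjusted p = 0.00347), from 0.76 against Flix Factory to 1.77 against Mequinenza. EY434782 had 10.59 and 10.82 at Sitjar, against 9.25 to 10.12 in the Ebro (median 9.74). It was 1.96-fold higher (SE 0.11 on the log2 scale, adjusted p = 0.00347), and its difference from single Ebro sites ranged from 0.75 for Flix Factory to 1.33 for Faio. Only 2 of 4 probes of EY434260 and 2 of 5 of EY434782 were usable. Over the alternative settings the log2 difference fell as low as 0.35 for EY434260 and 0.29 for EY434782. EY436790 had 13.59 and 13.79 at Sitjar, against 12.21 to 13.03 in the Ebro (median 12.78), a difference of 0.94 (SE 0.16, adjusted p = 0.0104). It differed by 0.89 on slide 1 and 0.99 on slide 2.

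**Figure D1:**
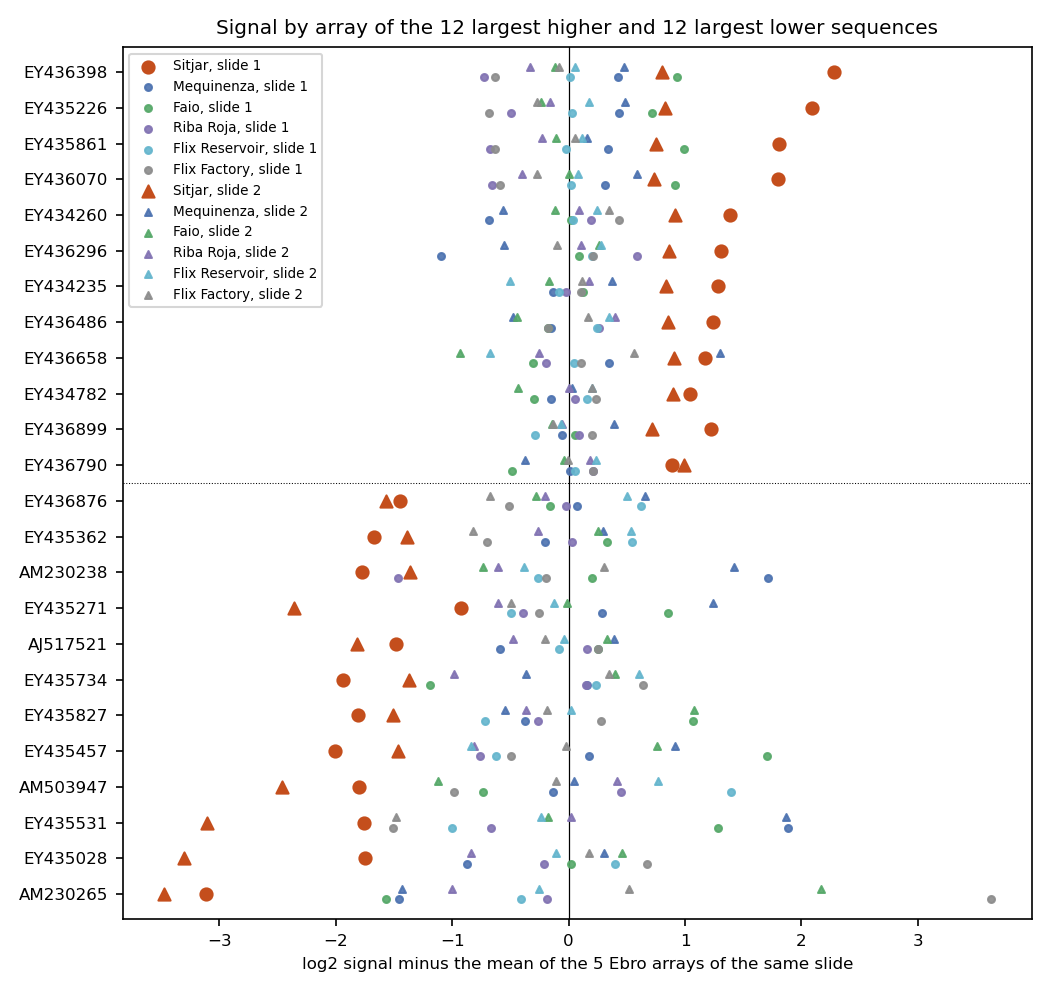
Signal of the 12 most strongly higher (upper block) and the 12 most strongly lower called sequences (lower block), as log2 signal minus the mean of the 5 Ebro arrays of the same slide. Large orange marks are the Sitjar arrays, small marks the Ebro arrays by site, circles slide 1 and triangles slide 2. Sitjar lay on one side of 0 on both slides for all 24 sequences, which their choice required. For EY436658 Mequinenza replicate 2 lay beyond the Sitjar mark of its slide.

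EY434235, 1 of the 7 higher sequences with 5 usable probes, had 14.78 and 14.33 at Sitjar, against 12.99 to 13.87 in the Ebro (median 13.54). The difference was 1.06 (SE 0.19, adjusted p = 0.0110), and from single sites it ranged from 0.94 to 1.35. EY436899 had 15.88 and 15.84 at Sitjar, against 14.37 to 15.51 in the Ebro (median 14.92). Its difference of 0.97 (SE 0.18, adjusted p = 0.0115) also passed with site means as samples (adjusted p = 0.0482). EY436486 had 10.28 and 10.56 at Sitjar, against 8.86 to 10.11 in the Ebro (median 9.27), and was 2.07-fold higher (adjusted p = 0.00809). In these 3 sequences no Ebro array reached either Sitjar array.

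EY436296 had 11.07 and 10.75 at Sitjar, against 8.67 to 10.35 in the Ebro (median 9.97). The difference of 1.09 (SE 0.20, adjusted p = 0.0115) was largest from Mequinenza, at 1.91, and smallest from Riba Roja, at 0.74. EY434678 had 13.49 and 13.71 at Sitjar, against 12.30 to 13.49 in the Ebro (median 12.78), and was 1.64-fold higher (adjusted p = 0.0171) with all 5 of its probes on the same side. EY436658 was the one of the 12 with the widest overlap. It had 12.11 and 12.36 at Sitjar, against 10.52 to 12.76 in the Ebro (median 11.01), with Mequinenza replicate 2 above both Sitjar arrays. Its difference was 1.04 (SE 0.29, adjusted p = 0.0440) over all sites and 0.21 from Mequinenza alone. The call of EY436658 was lost without Faio replicate 2, either Riba Roja array, Flix Reservoir replicate 2 or either Flix Factory array (adjusted p up to 0.0776).

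The lower sequences reached larger folds. AM230265 had a log2 signal of 7.83 and 9.04 at Sitjar, against 9.37 to 14.68 in the Ebro (median 11.30). It was 9.83-fold lower at Sitjar, with a log2 difference of -3.30 and the widest error of the named sequences (SE 0.94, adjusted p = 0.0475). The Ebro arrays themselves spread widely, with 14.57 and 13.04 at Flix Factory, and 9.37 and 14.68 at Faio. The call was lost without any one array of Mequinenza, Riba Roja or Flix Reservoir (adjusted p up to 0.0833), and none of its 4 usable probes passed alone.

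EY435028 was 5.75-fold lower at Sitjar. It had 6.29 and 5.67 at Sitjar, against 7.16 to 9.43 in the Ebro (median 8.57), and the groups did not overlap. These Sitjar signals lay near the dimmest detected signal, which averaged 4.99 over the Ebro arrays. The difference was -2.52 (SE 0.41, adjusted p = 0.00924), and from -3.30 to -1.41 over the alternative settings. It was negative against every single Ebro site, up to -2.95 against Flix Factory. It passed with site means as samples too (adjusted p = 0.0400), and so did AJ517521 (adjusted p = 0.0332). AJ517521 had 6.98 and 7.71 at Sitjar, against 7.88 to 9.92 in the Ebro (median 8.89). Its difference was -1.65 (SE 0.26, adjusted p = 0.00867), and against single sites it was the most even of the 12, from -1.49 to -1.94.

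EY435531 had 6.18 and 6.85 at Sitjar, against 6.43 to 11.82 in the Ebro (median 9.47), so Flix Factory replicate 1 lay below the second Sitjar array. It was 5.39-fold lower at Sitjar (log2 difference -2.43, SE 0.42, adjusted p = 0.0104). The size depended on the river site, from -0.94 against Flix Factory to -4.31 against Mequinenza. AM503947 had 5.95 and 5.71 at Sitjar, against 6.77 to 9.15 in the Ebro (median 8.14), without overlap. Its difference was -2.13 (SE 0.27, adjusted p = 0.00347), from -1.20 against Faio to -3.21 against Flix Reservoir. With normexp background correction the difference of AM503947 was -1.32 and it still passed. For EY435531 the difference ran from -3.11 to -1.76 over the alternative settings. The Sitjar signals of both sequences also lay near the dimmest detected signal, a mean of 4.99 over the Ebro arrays.

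EY435827 had 8.995 and 9.53 at Sitjar, against 10.09 to 12.11 in the Ebro (median 10.76). The groups did not overlap, and the difference was -1.66 (SE 0.20, adjusted p = 0.00347). EY435362 had 9.23 and 10.21 at Sitjar, against 10.19 to 12.13 in the Ebro (median 11.28), where Flix Factory replicate 1 fell just below the second Sitjar array. EY436876 had 9.48 and 10.03 at Sitjar, against 10.41 to 12.25 in the Ebro (median 11.15). Both had the smallest adjusted p of the comparison (0.00259), with differences of -1.53 (SE 0.16) for EY435362 and -1.51 (SE 0.16) for EY436876. EY436962, chosen after its values were seen, shared that adjusted p with a difference of -1.47 (SE 0.15).

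EY435457 was 3.33-fold lower at Sitjar (adjusted p = 0.00924), with the largest gap to Faio, at -2.97, and the smallest to Riba Roja, at -0.95. In EY435457, as in EY435734 below, the Sitjar and Ebro arrays overlapped. EY435271 was 3.11-fold lower (adjusted p = 0.0213) and differed unequally on the slides, by -0.92 on slide 1 and -2.35 on slide 2. AM230238 had 10.35 and 10.22 at Sitjar, against 10.67 to 13.84 in the Ebro (median 11.88), and was 2.96-fold lower (adjusted p = 0.0115). Its gap was -3.13 to Mequinenza and -0.53 to Riba Roja. EY435734 was 3.15-fold lower (adjusted p = 0.0300), and its call was lost without either Flix Reservoir array or Flix Factory replicate 1 (adjusted p up to 0.0563).

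**Figure D2:**
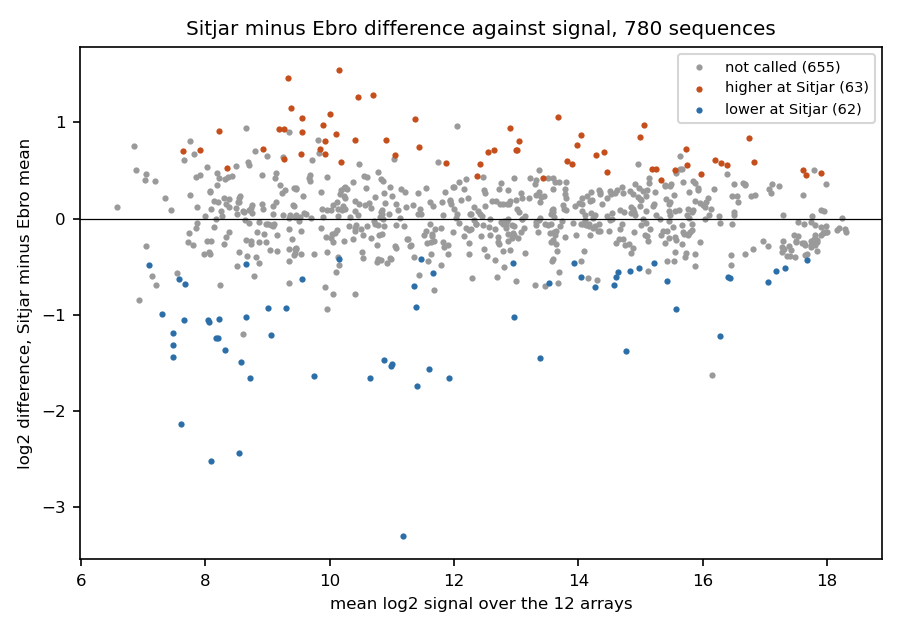
Log2 difference, Sitjar minus the Ebro mean, against the mean log2 signal over the 12 arrays for 780 sequences, with the 63 higher in orange, the 62 lower in blue and the 655 not called in grey. The differences beyond -2 lie at signals from 7.61 to 11.18, and the called sequences above a signal of 17 differ by less than 1.

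The called sequences covered most of the signal range. Mean log2 signal had a median of 12.55 over the higher sequences, 11.09 over the lower ones and 12.54 over all 780. Among the called sequences with the highest signals, EY436910 was 1.35-fold lower at Sitjar, with 17.45 and 17.19 at Sitjar, against 17.63 to 17.97 in the Ebro (adjusted p = 0.0294). The call of EY436910 was lost without Faio replicate 2, either Riba Roja array, Flix Reservoir replicate 1 or either Flix Factory array (adjusted p up to 0.0730). Its log2 difference was -0.43, against -0.93, -0.82 and -0.92 when scaled by the 75th percentile of usable probes, the 75th percentile of all probes and the median.

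EY434011 was 1.39-fold higher at Sitjar (adjusted p = 0.0256) and EY435297 1.37-fold higher (adjusted p = 0.0432), but the difference of both turned negative under each of the 3 scalings by a percentile or median. With the authors' values it was 0.21 for EY434011 and 0.18 for EY435297, and neither passed. Their direction is therefore not settled. EY434011 had 18.25 and 18.35 at Sitjar, against 17.40 to 18.12 in the Ebro, and its call was lost without Riba Roja replicate 2, Flix Reservoir replicate 1 or either Flix Factory array (adjusted p up to 0.0651). EY435297 lost its call without any one Ebro array other than Faio replicate 2 and those of Mequinenza (adjusted p up to 0.0949). EY436722, 1 of the 3 lower sequences with 5 usable probes, had 16.37 and 16.64 at Sitjar, against 16.96 to 17.46 in the Ebro (median 17.18). It was 1.58-fold lower (adjusted p = 0.0141), and EY436621 was 1.55-fold lower (adjusted p = 0.0185).

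Calls were unevenly spread over the accession series, which the choice of sequences did not use. The EY43 series held 656 of the 780 tested sequences, with 60 of the 63 higher calls and 42 of the 62 lower ones. In the AJ51 series 2 of 57 sequences were higher and 9 lower, and in the AM22 and AM23 series 1 of 45 was higher and 9 were lower. Of the 9 AM50 sequences, AM503947 and AM503944 were lower and none was higher, and none of the 13 sequences of other series was called. All 9 of the at least 2-fold higher sequences belonged to EY43, as did 14 of the 30 that were at least 2-fold lower. The other 16 comprised 7 of AJ51, 7 of AM22 and AM23 and 2 of AM50. The median difference of all tested sequences was 0.02 in EY43, 0.04 in AJ51, -0.07 in AM22 and AM23, -0.01 in AM50 and 0.18 in the other series. Median signal was 12.70 in EY43, 10.85 in AJ51, 10.84 in AM22 and AM23, 13.95 in AM50 and 12.68 in the other series. The contrast between the series was not tested.

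**Figure D3:**
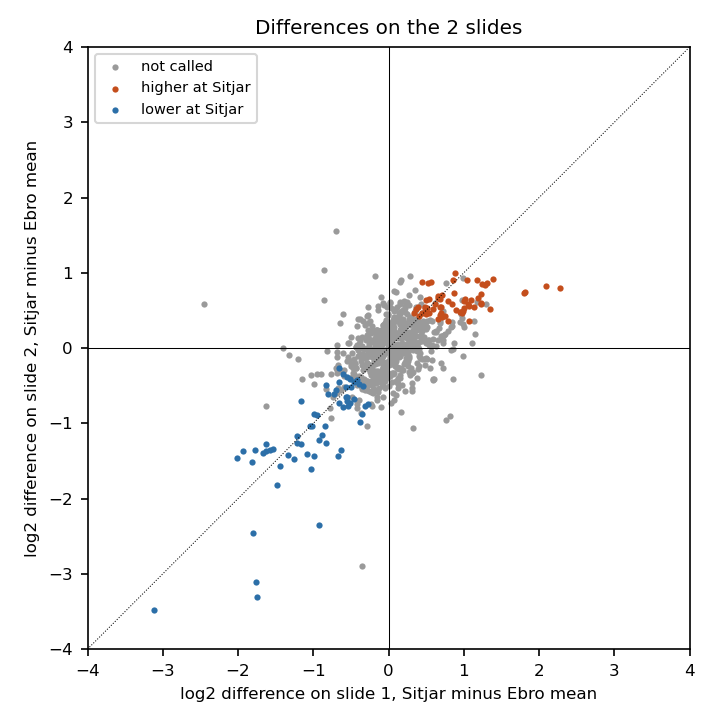
Log2 difference, Sitjar minus the mean of the 5 Ebro arrays, on slide 1 (horizontal) and slide 2 (vertical) for 780 sequences, with 63 higher in orange, 62 lower in blue and 655 not called in grey. The dotted line marks equal differences, and EY436398 and its 3 companions lie far below it at the right.

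Each slide gave its own reading of the comparison, with 1 Sitjar array against 5 Ebro arrays. All 125 called sequences had the same direction on both slides, which the test favours, and of the 655 that were not called 414 (63.2%) did. Over all 780 sequences the differences on the 2 slides had a Pearson correlation of 0.65 and a Spearman correlation of 0.58. Over the 655 not called these were 0.28 and 0.36. Sequences are not independent, and the arrays of a slide share their scan, so these are descriptions. Both Sitjar arrays lay outside the range of all 10 Ebro arrays for 67 of the 125 called sequences, 39 above and 28 below. Over all tested sequences that was the case for 13.7%, with 6.92% above and 6.79% below. The Sitjar mean lay beyond all 5 Ebro site means in 123 of the 125, which the test favours. Over all 780 that was so for 418, and over the 655 not called for 295. The exceptions among the called sequences were EY434681 and EY435443, both higher at Sitjar and both within the range of the site means.

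The mean over probes was tested, which favours sequences whose probes agree. In 122 of the 125 called sequences all usable probes had the same direction, against 549 of all 780. EY434896, EY434990 and EY436308, all lower at Sitjar by their mean, had probes in both directions. Tested singly, 399 of 2806 probes (14.2%) passed the threshold, with 6.84% higher and 7.38% lower, and among the 376 probes of called sequences 247 did. All usable probes passed in 46 called sequences, and no probe passed in 7, AM230265 among them. The median SD between probes of a sequence was 0.12 on the log2 scale over the called sequences, and 0.13 over all 780. For EY434260 the 2 usable probes, of 4 on the array, gave 2.20 and 2.24-fold. For AJ517521 the 3 usable probes, of 4 on the array, gave 3.10 to 3.20-fold. EY435827 had the widest probe range of the 24 most strongly changed sequences, with 2.02 and 4.95-fold, both lower at Sitjar. Probes of 1 sequence share its RNA and are not replicates of a site.

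**Figure D4:**
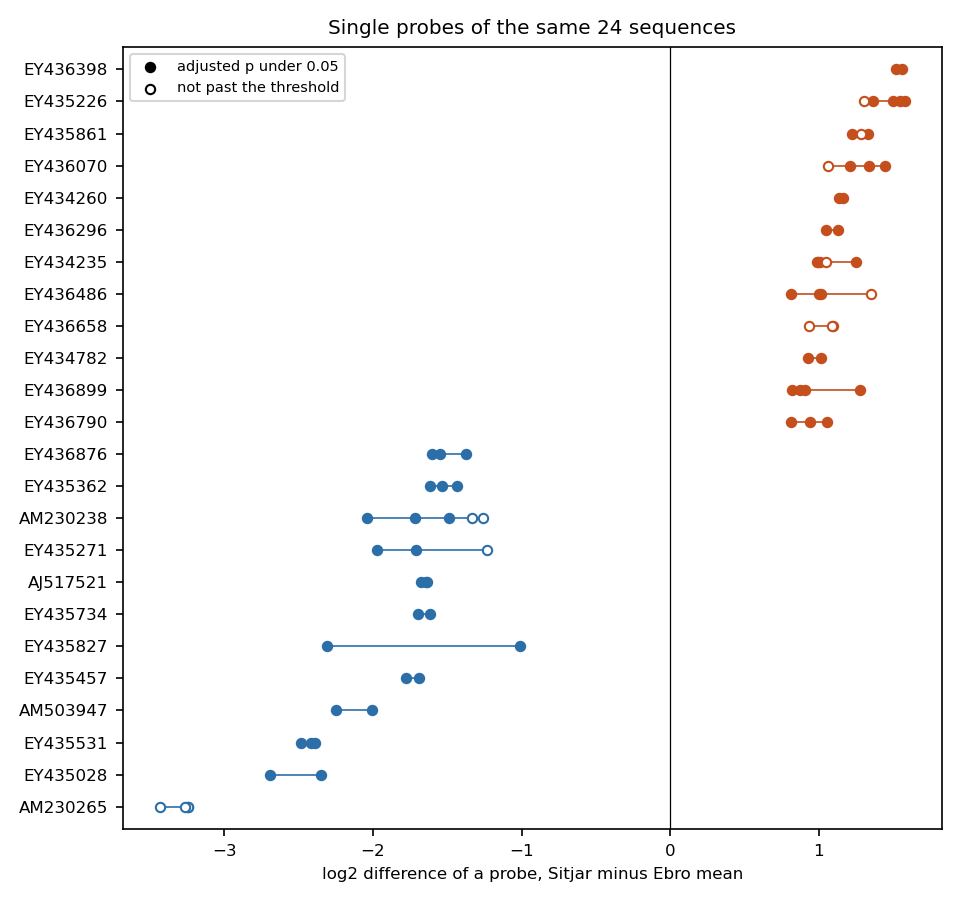
Log2 difference, Sitjar minus the Ebro mean, of each usable probe of the 24 most strongly changed sequences, one row per sequence, with filled marks for adjusted p under 0.05 and open marks for the rest. All probes of a row lie on one side of 0, and the 2 marks of EY435827 lie farthest apart.

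Sitjar was then set against each river site in the same fit. These contrasts share the Sitjar arrays. Against Mequinenza 116 sequences passed (14.9%), 52 higher and 64 lower at Sitjar, and against Faio 113 (14.5%), 61 higher and 52 lower. Fewer passed against the other sites, 28 against Flix Reservoir (3.59%), 8 against Riba Roja (1.03%) and 4 against Flix Factory (0.513%). The median absolute difference varied less, with 0.34 from Mequinenza, 0.34 from Faio, 0.28 from Flix Reservoir, 0.26 from Flix Factory and 0.25 from Riba Roja. At an unadjusted p under 0.05 there were 158 to 257 sequences per site. Replicate 2 of Mequinenza and of Faio had the lowest shares of probes well above background, 22.5% and 26.2%. The other Ebro arrays had 29.0% to 33.2%. The part of this in the counts of pairs with Mequinenza or Faio was not tested.

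The 4 sequences that passed against Flix Factory were AJ517691, AM230164, EY435827 and EY435831, all lower at Sitjar, by -1.40, -1.56, -1.71 and -1.06 on the log2 scale. Against Riba Roja, AM503947 (-2.56), EY435362 (-1.41), EY436876 (-1.40), EY434260 (1.01) and EY434782 (0.94) were among the 8. Between Ebro sites, Mequinenza and Faio differed in 15 sequences (1.92%), and each of them differed from Flix Reservoir in 14 (1.79%). Mequinenza differed in 9 (1.15%) from each of Riba Roja and Flix Factory, and the remaining pairs in 0 or 1 (up to 0.128%). These 10 pairs had 22 to 174 at an unadjusted p under 0.05, with median absolute differences from 0.10 to 0.26. The pairs among Riba Roja, Flix Reservoir and Flix Factory had the 3 lowest medians, from 0.10 to 0.13. Over the 5 pairs with Sitjar the medians were 0.25 to 0.34, so the lowest of them was within the range of the Ebro pairs. The difference in calls between both kinds of pair was not tested as such. Site means as samples, with 11 calls, and the site as a random block, with 55, are the tests that bring the spread among river sites into the error.

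**Figure D5:**
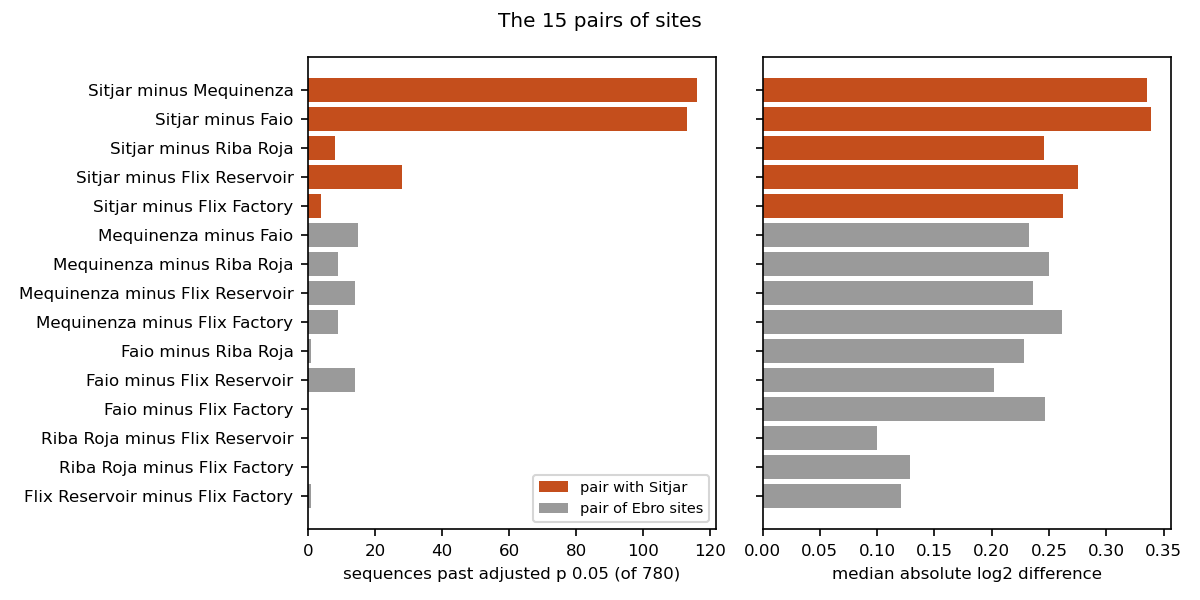
Sequences past an adjusted p of 0.05 (left) and median absolute log2 difference over 780 sequences (right) for the 5 pairs with Sitjar in orange and the 10 pairs of Ebro sites in grey. Mequinenza and Faio stand out by calls from Sitjar, at 116 and 113, while the medians of the pairs with Sitjar run from 0.25 to 0.34. Replicate 2 of Mequinenza and of Faio had the lowest shares of probes well above background, 22.5% and 26.2%.

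Variation within the river was tested on its own. A moderated F test among the 5 Ebro sites called 12 of the 780 sequences (1.54%), and 4 of these were among the 125. They were AM230425, EY435030 and EY436962, lower at Sitjar, and EY434018, higher at Sitjar. AM230425 differed by -1.45 from the Ebro mean (SE 0.25, adjusted p = 0.0104) with an adjusted p of 0.0444 among the Ebro sites. For the 24 most strongly changed sequences the smallest adjusted p of the F test was 0.0567, for AM230238. Leaving out single arrays moved the count of 12 to between 0 and 42. A p above the threshold does not show that these were level along the river.

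Large differences that did not pass were few. AM503945 differed by -1.63 (SE 0.92, adjusted p = 0.261) and AF086635 by -1.20 (SE 0.56, adjusted p = 0.187), the only sequences past 2-fold without a call, and the Sitjar mean of each lay within the range of the Ebro site means. The median 95% confidence interval of a difference reached 0.38 to either side on the log2 scale, before adjustment.

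RXR is the name of a nuclear receptor that binds DNA as a partner of others. It was not among the 780. Its 6 probes were well above background on 2 to 10 of the 12 arrays. CUST_2_PI415987745, the most often detected, had 5.38 and 5.57 at Sitjar, against 3.86 to 6.32 in the Ebro (median 5.17). Both Sitjar arrays lay inside the Ebro range.

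Probes detected at Sitjar alone were counted apart from the fit. Well above background on both arrays of Sitjar, and nowhere in the Ebro, were 26 of the 13654 probes, from 26 different sequences. No sequence showed this by more than 1 probe, although each had 3 to 5 probes on the array. Of these sequences 25 were not tested, and EY435543 was, with 3 other probes that were usable and a difference of 0.10 (adjusted p = 0.853). The same count was 7 for Faio, 6 for Mequinenza, 3 for Flix Factory and 0 for Riba Roja and Flix Reservoir. No probe was above background on all 10 Ebro arrays and on neither Sitjar array. The Sitjar arrays also had the highest share of probes above background of the 12, and its part in this count was not tested. Detection at Sitjar alone was how these probes were chosen, so their direction is not a result. Nor did the signal itself separate all of them. In some, an Ebro array was brighter than both Sitjar arrays. EY436507 reached 6.86 in the Ebro, against 5.15 and 6.04 at Sitjar, and EY434311 reached 6.59, against 4.36 and 4.87. The largest lower limits of the fold were 2.39 for EY435300 and 2.19 for EY435040. EY435300 had 5.24 and 7.25 at Sitjar, against up to 5.08 in the Ebro, so its limit rests mostly on the second Sitjar array. To set the limit, each Ebro array gave its dimmest detected signal, or the signal of the probe itself where that was brighter. For 5 of the 26 probes the limit was under 1 and no fold is given.

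The 780 sequences were those with 2 or more usable probes. Just outside that limit were 446 sequences with 1 usable probe, with a median absolute difference of 0.33, and just inside were 310 with 2, with 0.24. Their median log2 signals were 10.15 with 1 usable probe and 11.38 with 2. The part of signal and probe number in this gap was not tested.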

How the data were processed

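Total RNA of each pool (500 ng) was labelled with Cy3 and hybridised to a 1-colour Agilent array, per the labels' protocols. The deposited intensity values came from Agilent Feature Extraction 10.5.1.1 per the file headers (9.5 per the submitters' processing notes), after subtraction of background and a spatial correction in each array, with no scaling across arrays. The other deposited measures are flags, which are the scanner software's calls. The authors' deposited log2 table, whose centring and scaling between arrays stay unknown, correlated at 0.985 to 0.9999 with the log2 scanner signal, with slopes of 0.93 to 1.20. Its column medians were 2.93 and 2.94 for Sitjar and 2.93 to 3.26 for the Ebro arrays, and it was used only as an alternative.

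Of 15744 spots, 536 controls were left out, outlier spots removed and copies of a probe averaged as log2. No spot was saturated. Quantile normalisation ran over all 13654 probes. A probe was usable if well above background (over 0.5 of its copies) on all 12 arrays and without an outlier spot (2806 probes, with 41 left out for an outlier).

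Sequence means were fitted in limma 3.58.1 (R 4.3.3) with 6 site means and the slide, with Benjamini-Hochberg adjustment over 780 sequences. Replicate number and slide are 1 factor per the file headers. The deviations of same-numbered arrays from their site means correlated at 0.41 to 0.77 over the 15 pairs of sites, so the numbers were taken to pair the samples. Nothing says how individuals were divided into pools, so p-values measure the spread between pools and arrays together, and the number of arrays limits the precision. The scripts were tested on simulated data. The files hold no mean spot signal, so normexp, an alternative planned on it, used the median signal. That change was made after seeing the data.

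Named were the 12 largest differences in each direction among called sequences with the same direction on both slides, RXR, 3 called sequences in each direction with the most usable probes (ties, of which there were 7 for the higher ones, by larger difference), the 3 with the highest signal, and sequences seen at Sitjar alone by 2 or more probes, of which there were none. Members, lists and tests were chosen with earlier results of these data known.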

Additional observations from a re-analysis of the deposited data

How the results depend on the processing

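The count as reported was 63 higher and 62 lower sequences. It moved to 1 and 2 with no replicate block, 26 and 29 when site was a random block, and 4 and 7 with site means as samples. It was 36 and 115 with the 75th percentile of usable probes, where the median difference of all sequences was -0.05. It was 48 and 119 with the median of usable probes (median difference -0.04). With the 75th percentile of all probes (median difference 0.06) it was 56 and 88. It was 70 and 95 with 1 or more usable probes, 48 and 35 with 3 or more, and 192 and 207 with single probes. Without the filter on dim probes limma called 0 in either direction among 3538 sequences, with 334 at an unadjusted p under 0.05. Leaving out 1 array gave 0 to 95 higher and 0 to 91 lower sequences. In each such fit a site is left with 1 array, assumed to vary like the others. Counts stayed within 1.5 times of the reported ones with the authors' values, normexp, the 75th percentile of all probes, limma-trend, array weights, and without any one Ebro site. All 125 called sequences kept their direction in these settings, except 3 under the percentile and median scalings, and apart from those left with too few probes. The summed calls over the 5 pairs with Sitjar were 269, against 8 with no replicate block and 40 to 525 when 1 array was left out. Over the 10 Ebro pairs they were 63, against 4 with no replicate block, 17 with the 75th percentile and 8 to 349 when 1 array was left out. The F test among Ebro sites called 12, against 0 to 42 when 1 array was left out. It called 0 with no replicate block and with the 75th percentile of usable probes, with 44 and 113 at an unadjusted p under 0.05. EY434011 and EY435297 reversed, to -0.19 and -0.20 with that percentile, -0.074 and -0.084 with the percentile of all probes, and -0.18 and -0.19 with the median. The cause was not tested. Of the 30 named sequences, 27 lost their call with no replicate block, 15 when site was a random block, 27 with site means as samples, 1 to 6 without any one Ebro array, 30 without Sitjar replicate 1 and 25 without Sitjar replicate 2. Signal near background limits which sequences can be read, and 2761 had fewer than 2 usable probes.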
